A study of Mus musculus with 19 samples.

Results

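The secreted chemokine Cxcl12 and its receptors Cxcr4 and Ackr3 were followed across 19 mouse embryonic stem cell (mESC) lines. The 3 genes were taken by gene name from a table of 55416 genes, and all 3 passed the filter on low counts. They were chosen by the measured fold change of Cxcl12 between groups I and II of these lines, which was among the lowest of all genes, and the receptors were added as its binding partners. The group difference of Cxcl12 is therefore given as a description, with no test, and the same holds for its receptors in that contrast.

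Embryos of B6CBAF1/J mice, a hybrid strain, were taken apart at the 8-cell stage and each line was grown from 1 blastomere, with 7 lines of embryo 3 (3.1 to 3.7), 7 of embryo 2 (2.1 to 2.7) and 5 of embryo 1 (1.1 to 1.5). All lines were kept on human foreskin fibroblasts (HFF-1) inactivated with mitomycin C, in a medium with Knockout Serum Replacement, leukemia inhibitory factor, the MEK inhibitor PD0325901 and the TGFβ inhibitor SB431542, and no line was treated differently from the others. Poly-A RNA was sequenced after the feeders had been taken off, with 1 library per line. The paper divided the same libraries by their expression into group I (11 lines: 3.4, 3.5, 3.6, 3.7, 2.3, 2.4, 2.5, 2.6, 1.1, 1.3 and 1.4) and group II (8 lines: 3.1, 3.2, 3.3, 2.1, 2.2, 2.7, 1.2 and 1.5).

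Cxcl12 binds Cxcr4, a G protein-coupled receptor through which it directs cell migration, and in the mouse embryo this pair guides primordial germ cells and is needed for blood, heart and brain development. Ackr3 binds the same ligand but couples to arrestin rather than to G proteins, and it is known for taking Cxcl12 up and clearing it from the surroundings. Cxcl12 is made mainly by stromal and mesenchymal cells, and both Cxcl12 and Cxcr4 are known in other cell types as genes that respond to hypoxia-inducible factors (HIF).

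Cxcl12 lies on chromosome 6 (117144945 to 117158328, forward strand) in GRCm39. Cxcr4 (128515936 to 128520044, reverse strand) and Ackr3 (90131689 to 90144473, forward strand) both lie on chromosome 1. Neighbours were sought only among the 55416 genes with deposited counts, and none of these overlapped any of the 3. Of the 6 such genes within 250000 bases of Cxcl12, 0 passed the filter on low counts. No expressed neighbour was therefore available among them to set beside it. The 250 bases upstream of the RefSeq start site of each gene are shown here because the HIF target genes described below differed between the same groups as Cxcl12. They come from the RefSeq promoter table for GRCm38.p6, in which all 3 genes were matched, and each window matched GRCm39 exactly at 1 place. Capitals mark GCGTG, which with ACGTG forms the core to which HIF binds, searched on both strands.
Cxcl12, chr6:117145246-117145495, forward strand: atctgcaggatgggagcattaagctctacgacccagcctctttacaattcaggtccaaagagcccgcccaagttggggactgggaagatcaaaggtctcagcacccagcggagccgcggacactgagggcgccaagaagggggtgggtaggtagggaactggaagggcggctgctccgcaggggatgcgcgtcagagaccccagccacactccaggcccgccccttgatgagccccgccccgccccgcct
Cxcr4, chr1:128520037-128520286, reverse strand: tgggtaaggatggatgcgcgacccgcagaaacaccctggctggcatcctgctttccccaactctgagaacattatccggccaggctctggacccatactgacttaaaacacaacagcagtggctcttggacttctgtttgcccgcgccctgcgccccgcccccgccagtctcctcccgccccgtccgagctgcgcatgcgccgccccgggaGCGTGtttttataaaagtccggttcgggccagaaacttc
Ackr3, chr1:90131452-90131701, forward strand: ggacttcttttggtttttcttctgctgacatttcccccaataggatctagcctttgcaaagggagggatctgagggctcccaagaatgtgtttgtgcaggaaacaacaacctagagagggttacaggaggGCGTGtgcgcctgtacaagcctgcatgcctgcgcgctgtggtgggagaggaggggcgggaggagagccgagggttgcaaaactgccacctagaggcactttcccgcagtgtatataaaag
In the GENCODE annotation the Cxcl12 window lies inside the gene, 301 to 550 bases downstream of the outermost annotated start, whereas those of Cxcr4 and Ackr3 reach 8 and 13 bases into their genes. The Cxcl12 window held neither core. GCGTG occurred once in the Cxcr4 window, starting 39 bases before the start site, and once in the Ackr3 window, starting 120 bases before it. Of 32851 windows of the same length, 28.2% held GCGTG, 16.6% held ACGTG and 38.6% held at least 1 of them. GC content was 64.4% in the Cxcl12 window, 61.2% in that of Cxcr4 and 54% in that of Ackr3. A match of 5 letters describes the window and is no evidence of binding.

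Libraries held 33846569 to 48740941 counts (median 41942274). Levels are given as CPM, the counts scaled to a common library total with TMM factors. The summed level of 8 pluripotency markers lay between 2107 and 4379 CPM, so that markers of the labelled cell type were present in every line. Genes on chromosome 6, where Cxcl12 lies, stood lower in line 3.7 than in its sister lines, with a median of -0.41 on the log2 scale over 655 genes, against -0.18 to 0.17 in the other lines. On chromosome 1 line 2.6 stood highest, at 0.17 over 774 genes.

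Cxcl12 was the most variable of the 3 genes, with 0.780 CPM in line 3.5 (36 counts) and 69.9 CPM in line 1.5 (3112 counts). In embryo 3 it had 2.71, 0.780, 1.42 and 1.10 CPM in the group I lines 3.4, 3.5, 3.6 and 3.7, against 7.28, 18.9 and 12.7 CPM in the group II lines 3.1, 3.2 and 3.3. All 4 group I lines of this embryo lay below all 3 of its group II lines. In embryo 2 it had 5.58, 6.89, 4.61 and 1.69 CPM in the group I lines 2.3, 2.4, 2.5 and 2.6, against 21.4, 14.0 and 10.2 CPM in the group II lines 2.1, 2.2 and 2.7. In embryo 1 the group I lines 1.1, 1.3 and 1.4 had 5.86, 3.83 and 6.48 CPM, and the group II lines 1.2 and 1.5 had 14.8 and 69.9 CPM. The groups were thus apart in each of the 3 embryos. How many of all tested genes keep the groups apart, within embryos or over all lines, was not counted.

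**Figure D1:**
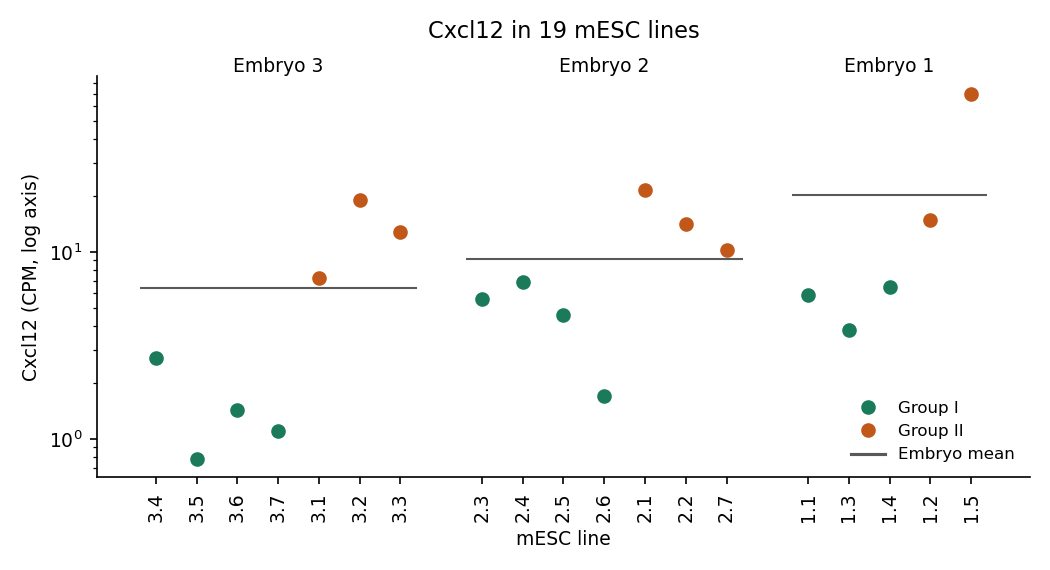
Cxcl12 level (CPM, log axis) in each of the 19 mESC lines, arranged by embryo, with group I in green, group II in orange and the mean of each embryo as a line. In each embryo every group I line lies below every group II line, and line 1.5 stands highest at 69.9 CPM.

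Taken over all embryos, Cxcl12 averaged 3.72 ± 2.29 CPM in group I (SD, n = 11), against 21.1 ± 20.2 CPM in group II (SD, n = 8), and the groups did not overlap. The log2 fold change, group I minus group II, was -2.56 (SE 0.33) in an edgeR fit with embryo and group, or 5.89-fold lower in group I. Of 19265 genes tested for the groups, 2331 (12.1%) were called, with adjusted p below 0.05 and a change of more than 1.5-fold, and among the 13998 of these whose mean reached 1 CPM only 1 had a lower fold change than Cxcl12. The gap between the groups was narrow at its edge. Line 2.4, the highest of group I, had 6.89 CPM with an exact Poisson 95% interval of 6.12 to 7.73 CPM, and line 3.1, the lowest of group II, had 7.28 CPM with an interval of 6.49 to 8.13 CPM. The intervals of the group I lines 1.4 (5.70 to 7.35 CPM) and 1.1 (5.08 to 6.72 CPM) reached that of line 3.1 too. Intervals of this kind cover counting error only.

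The size of the Cxcl12 difference varied among embryos, at -3.10 (SE 0.52) in embryo 3, -1.69 (SE 0.49) in embryo 2 and -2.96 (SE 0.59) in embryo 1. Whether these differ was not tested. Line 1.5 stood far above the rest of group II, which averaged 14.2 ± 4.84 CPM without it (SD, n = 7), and its library name, like that of line 2.4, falls outside the run of the others. The overall fold change was -2.36 without lines 1.5 and 2.4 and -2.12 without lines 1.5 and 3.7. The paper had placed line 2.2 in group II from a second grouping method, and its Cxcl12 level of 14.0 CPM was near the group II median of 14.4 CPM. That median includes line 2.2 itself, and Cxcl12 was chosen by its difference between these groups. The level is therefore no support for the placement.

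Among the group I lines alone, Cxcl12 was lowest in embryo 3. Its 4 lines averaged 1.50 ± 0.85 CPM (SD), against 4.69 ± 2.21 CPM in the 4 lines of embryo 2 and 5.39 ± 1.39 CPM in the 3 lines of embryo 1 (SD). The highest group I line of embryo 3, at 2.71 CPM, lay under the lowest of embryo 1, at 3.83 CPM, while line 2.6 of embryo 2 (1.69 CPM) fell within the range of embryo 3. In group II the lines of embryo 3 averaged 13.0 ± 5.83 CPM (SD, n = 3) and those of embryo 2 averaged 15.2 ± 5.68 CPM (SD, n = 3), while the pair of embryo 1 averaged 42.3 ± 39.0 CPM (SD, n = 2).

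Embryos were compared by the quasi-likelihood test of edgeR with Benjamini-Hochberg adjustment over 18878 genes. Sister lines share an embryo, so the p-values measure the spread between lines of these 3 embryos only. The mean of Cxcl12 was 6.42 ± 7.02 CPM over the lines of embryo 3 (SD, n = 7), 9.19 ± 6.69 CPM over those of embryo 2 (SD, n = 7) and 20.2 ± 28.1 CPM over those of embryo 1 (SD, n = 5). No pair of embryos passed the test. The log2 fold change was -1.14 for embryo 2 minus embryo 1 (SE 0.78, edgeR adjusted p = 0.452), -1.65 for embryo 3 minus embryo 1 (SE 0.79, edgeR adjusted p = 0.192) and -0.51 for embryo 3 minus embryo 2 (SE 0.73, edgeR adjusted p = 0.698). Line 1.5 decided both values against embryo 1. Without it embryo 2 minus embryo 1 was 0.25 and embryo 3 minus embryo 1 was -0.27. Embryo 3 minus embryo 2 was -0.51 without line 1.5, but -1.08 without line 3.2 and -0.15 without line 2.1. With group added as a covariate, embryo 3 minus embryo 1 was -1.74 and passed (edgeR adjusted p = 0.00676), but without line 1.5 the same model gave -1.19 (edgeR adjusted p = 0.0676).

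Cxcr4, the signaling receptor, varied less than its ligand, within 1.77 to 6.06 CPM. In embryo 3 it had 3.14, 2.32, 1.77 and 1.86 CPM in the group I lines 3.4 to 3.7, against 2.63, 2.99 and 5.28 CPM in the group II lines 3.1 to 3.3. In embryo 2 it had 6.06, 3.29, 4.03 and 5.72 CPM in the group I lines 2.3 to 2.6, against 4.56, 3.10 and 3.66 CPM in the group II lines 2.1, 2.2 and 2.7. The groups overlapped in both embryos. In embryo 1 it had 1.87, 3.44 and 3.65 CPM in the group I lines 1.1, 1.3 and 1.4, against 4.86 and 1.80 CPM in the group II lines 1.2 and 1.5, so that the group II lines held both the highest and the lowest value of the embryo. Line 1.5, with the most Cxcl12, had the second lowest Cxcr4 level of the 19 lines.

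Over all embryos Cxcr4 averaged 3.38 ± 1.47 CPM in group I (SD, n = 11) and 3.61 ± 1.21 CPM in group II (SD, n = 8), with a log2 fold change of -0.17 (SE 0.23), or -0.0069 without line 3.3 and -0.28 without line 1.5. Its direction was not the same in each embryo, with -0.67 (SE 0.35) in embryo 3, 0.34 (SE 0.35) in embryo 2 and -0.15 (SE 0.42) in embryo 1. Between embryos it was 2.86 ± 1.19 CPM in embryo 3, 4.35 ± 1.16 CPM in embryo 2 and 3.12 ± 1.30 CPM in embryo 1 (SD, n = 7, 7 and 5). Of the 7 lines of embryo 3, 5 lay below the lowest line of embryo 2. That difference was -0.61 (SE 0.26) and did not pass (edgeR adjusted p = 0.157), but without line 3.3, the high line of embryo 3, it was -0.83 and passed (edgeR adjusted p = 0.0404). Embryo 2 minus embryo 1 was 0.48 (SE 0.29, edgeR adjusted p = 0.379), with a 95% interval of -0.09 to 1.04, and embryo 3 minus embryo 1 was -0.13 (SE 0.29, edgeR adjusted p = 0.810), with an interval of -0.69 to 0.43.

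Ackr3, the scavenging receptor, differed between embryos. In embryo 2 it had 10.2, 9.08, 8.60 and 7.61 CPM in the group I lines 2.3 to 2.6, and 8.51, 6.80 and 9.63 CPM in the group II lines 2.1, 2.2 and 2.7. In embryo 1 it had 17.1, 17.3 and 21.2 CPM in the group I lines 1.1, 1.3 and 1.4, and 12.6 and 8.91 CPM in the group II lines 1.2 and 1.5. Of the 7 lines of embryo 2, 4 lay below every line of embryo 1, and 4 of the 5 lines of embryo 1 lay above every line of embryo 2. Line 1.5 was the exception.

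Ackr3 averaged 8.63 ± 1.16 CPM in embryo 2 (SD, n = 7) and 15.4 ± 4.74 CPM in embryo 1 (SD, n = 5), a log2 fold change of -0.84 (SE 0.17, edgeR adjusted p = 0.00490). It was the only one of the 3 genes called for that pair, against 4.35% of all tested genes, and the call held when each line was left out in turn, with fold changes of -0.98 to -0.70. In embryo 3 it had 13.0, 15.0, 9.22 and 12.3 CPM in the group I lines 3.4 to 3.7, and 10.96, 13.9 and 15.6 CPM in the group II lines 3.1 to 3.3. Of these 7 lines, 6 lay above the highest line of embryo 2. The mean of embryo 3 was 12.9 ± 2.26 CPM (SD, n = 7), and its log2 fold change over embryo 2 was 0.58 (SE 0.16, edgeR adjusted p = 0.0294), which passed on p but, at 1.49-fold, not on size. With lines left out singly it was called in 6 of 19 cases, and in 4 of 19 the adjusted p of edgeR was above 0.05, with a highest value of 0.0644. For that pair 5.63% of tested genes were called. Embryo 3 minus embryo 1 was -0.26 (SE 0.17, edgeR adjusted p = 0.348), where 5.45% of tested genes were called. In the joint test of the 3 embryos Ackr3 passed (edgeR adjusted p = 0.00608), as did 13.6% of tested genes, and Cxcl12 (0.258) and Cxcr4 (0.197) did not.

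**Figure D2:**
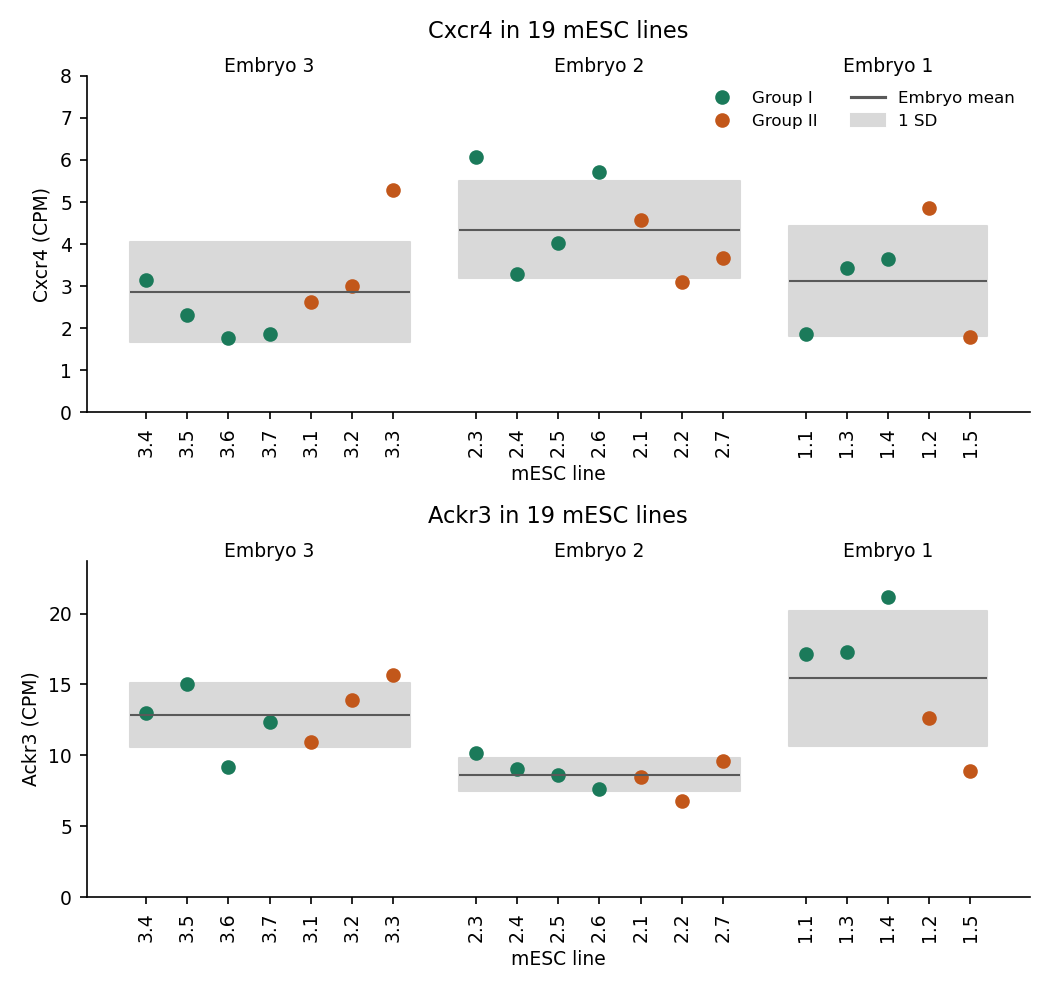
Cxcr4 (upper) and Ackr3 (lower) levels in CPM in each of the 19 mESC lines, arranged by embryo, with group I in green, group II in orange, the embryo mean as a line and 1 SD to each side as a grey band. The groups overlap in each embryo for both receptors except for Ackr3 in embryo 1, where group I lies higher, and Ackr3 is low in embryo 2, at 6.80 to 10.2 CPM.

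Between the groups Ackr3 averaged 12.8 ± 4.39 CPM in group I (SD, n = 11) and 10.9 ± 2.99 CPM in group II (SD, n = 8), with a log2 fold change of 0.18 (SE 0.13), or 0.074 without line 1.5. Embryo 1 stood apart, at 0.79 (SE 0.22), with its 3 group I lines above its 2 group II lines. The values were -0.11 (SE 0.18) in embryo 3 and 0.10 (SE 0.18) in embryo 2, where the groups overlapped. Whether the embryos differ in this respect was not tested. Line 1.5 thus had the highest Cxcl12 level of all lines together with the lowest Ackr3 level of its embryo.

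**Figure D3:**
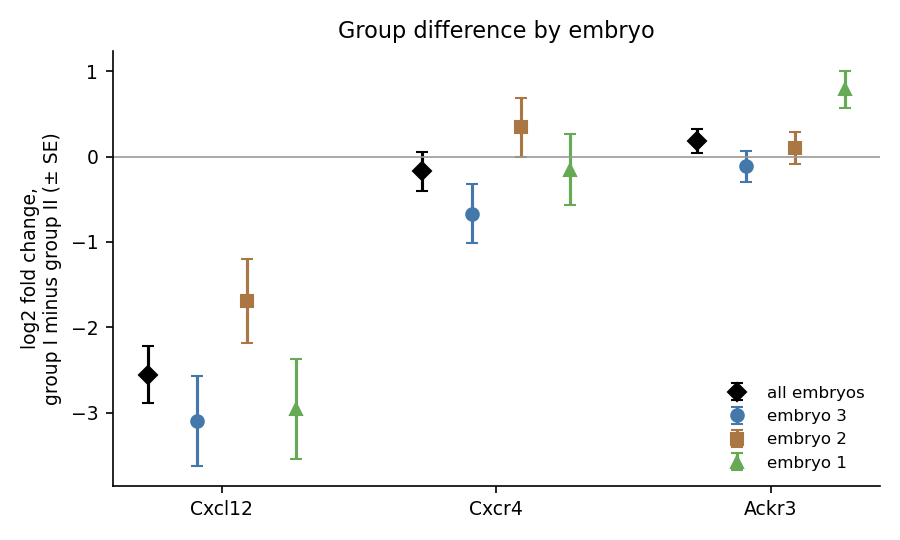
Log2 fold change, group I minus group II, of Cxcl12, Cxcr4 and Ackr3 over all embryos and in embryos 3, 2 and 1, with bars of 1 SE. Cxcl12 is lower in group I in each embryo, at -3.10, -1.69 and -2.96, while the values of the receptors lie between -0.67 and 0.79.

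To set the ligand beside its receptors, levels were divided by the length of the merged exons in kilobases (8346 bases for Cxcl12, 1822 for Cxcr4 and 8105 for Ackr3). Per kilobase Cxcl12 had 0.446 ± 0.274 CPM in group I (SD, n = 11) and 2.53 ± 2.42 CPM in group II (SD, n = 8). On the same scale Cxcr4 had 1.85 ± 0.81 CPM in group I, against 1.98 ± 0.66 CPM in group II, and Ackr3 had 1.58 ± 0.54 CPM in group I, against 1.34 ± 0.37 CPM in group II. On this scale Cxcl12 was above Ackr3 in 0 of 11 lines of group I and in 6 of 8 lines of group II, and above Cxcr4 in 0 of 11 lines of group I and in 3 of 8 lines of group II. The order depended in part on the length used. Divided by the longest transcript (5669 bases for Cxcl12, 1822 for Cxcr4 and 7577 for Ackr3), Cxcl12 was above Ackr3 in 1 of 11 lines of group I and 7 of 8 of group II, and above Cxcr4 in 1 of 11 lines of group I and 4 of 8 of group II. The group I line above Ackr3 was line 2.4, with 1.21 CPM per kilobase of Cxcl12 beside 1.20 of Ackr3, and the one above Cxcr4 was line 1.1. The ratio of Cxcl12 to Ackr3 per kilobase took its lowest value of 0.0504 in line 3.5 and its highest of 7.61 in line 1.5. The 2 receptors themselves had no fixed order, with Ackr3 above Cxcr4 in 6 of 11 lines of group I and 2 of 8 lines of group II.

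**Figure D4:**
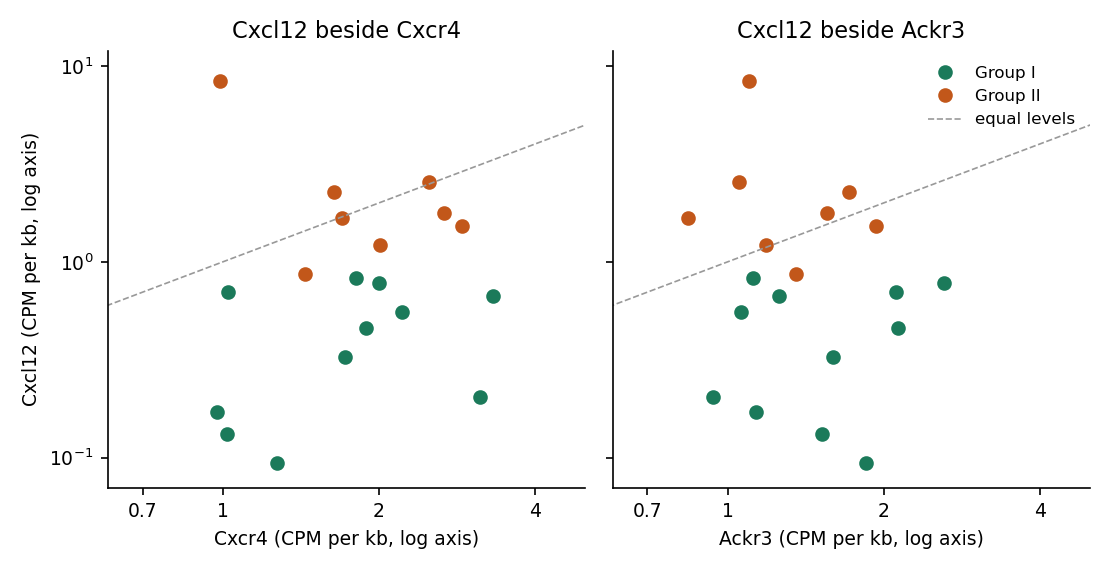
Cxcl12 against Cxcr4 (left) and against Ackr3 (right) in CPM per kilobase of merged exons, log axes, 1 point per line, with group I in green, group II in orange and a dashed line at equal levels. All 11 group I lines lie under the dashed line in both panels, and 3 of 8 and 6 of 8 group II lines lie above it.

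Relations between the members were examined on log2 CPM after subtraction of the embryo mean, or of the mean of each embryo and group within groups. Since the groups are apart in Cxcl12, its relations were taken within groups only, which left 7 relations. Cxcr4 and Ackr3 had a Pearson r of 0.44 over the 19 lines (permutation p = 0.123, adjusted 0.430) and a Spearman rho of 0.43 (permutation p = 0.115, adjusted 0.403), and r was 0.32 without lines 2.3 and 3.6, the farthest in Cxcr4. In the 8 lines of group II the same pair had r = 0.82 (exact permutation p = 0.0833, adjusted 0.430) and rho = 0.86 (exact permutation p = 0.0556, adjusted 0.389), with r = 0.63 without lines 1.5 and 3.3. In group I r was 0.38 (exact permutation p = 0.280) and rho 0.47 (exact permutation p = 0.185), and r was 0.05 without lines 2.3 and 3.6. Cxcl12 had r = -0.09 with Cxcr4 (exact permutation p = 0.804; rho = 0.15, exact p = 0.695) and r = 0.22 with Ackr3 (exact permutation p = 0.567; rho = 0.36, exact p = 0.327) in group I. Without lines 3.5 and 3.7 these were -0.17 and 0.76. In group II it had r = -0.46 with Cxcr4 (exact permutation p = 0.722; rho = -0.38, exact p = 0.806) and r = -0.30 with Ackr3 (exact permutation p = 0.708; rho = -0.19, exact p = 0.750), or -0.08 and -0.38 without lines 1.5 and 3.1. After adjustment over the 7 none passed, and all permutations kept lines within their embryo. The lowest adjusted p came without line 1.2, where Cxcr4 and Ackr3 over all lines had rho = 0.64 (permutation p = 0.0086, adjusted 0.0602) and r = 0.58 (permutation p = 0.0172, adjusted 0.120).

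Other ligands bind these receptors. Mif, a cytokine that binds Cxcr4, was abundant and even, at 250.8 to 534.9 CPM over all lines, with 0 calls among embryos and a log2 fold change of -0.27 (SE 0.09) between the groups. Hmgb1, which forms a complex with Cxcl12, and Ubb, whose ubiquitin product has been described as a Cxcr4 ligand, had means of 622.6 and 1495 CPM and no call. Cxcl11, which binds Ackr3 and Cxcr3, was near absent in embryo 2, with 0 counts in 4 of its 7 lines and 14 counts in all, against 382 counts in all 5 lines of embryo 1, where it ranged from 0.311 to 3.39 CPM. It fell by 5.19 on the log2 scale of the fit in embryo 2 (edgeR adjusted p = 0.00142). In embryo 3 it ranged from 0.0438 to 2.12 CPM and was called higher than in embryo 2 (edgeR adjusted p = 0.0189). Embryo 2 was thus the lowest of the 3 embryos in both Ackr3 and Cxcl11.

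Secreted peptides that Ackr3 clears also differed. Adm, which encodes adrenomedullin, had a median of 1.03 CPM in embryo 3 (range 0.619 to 8.39) and 9.35 CPM in embryo 1 (range 5.80 to 30.9), a log2 fold change of -2.65 (edgeR adjusted p = 0.0450). Like Cxcl12 it was lower in group I, at -2.20 (SE 0.47), with a median of 1.40 CPM in group I, against 7.39 CPM in group II, but its groups overlapped, since the group I line 1.4 had 21.3 CPM. Penk, the precursor of enkephalins, had a median of 1.15 CPM in embryo 3 (range 0.211 to 5.09) and 0.535 CPM in embryo 2 (range 0.396 to 0.662). It was called higher in embryo 3 (log2 fold change 1.79, edgeR adjusted p = 0.0444). The group II lines 3.1 and 3.2, at 0.211 and 0.248 CPM, nevertheless lay below every line of embryo 2. The Penk median was 1.15 CPM in group I, against 0.486 CPM in group II. Of the 6 other ligands listed, 1 was thus called lower for embryo 2 minus embryo 1, 1 lower for embryo 3 minus embryo 1, 2 higher for embryo 3 minus embryo 2, and 1 higher and 2 lower for the groups. Over all tested genes the shares called in these comparisons, in either direction, were 4.35%, 5.45%, 5.63% and 12.1%.

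Few other chemokines were expressed. Of 37 other CXC, CC, XC and CX3C ligands, 25 had any count, 9 passed the filter on low counts and 5 reached a mean of 1 CPM. These 5 were Ccl25 (6.27 CPM), Ccl27a (3.76 CPM), Cxcl16 (2.89 CPM), Cxcl14 (2.53 CPM) and Cx3cl1 (1.80 CPM), and for the groups their log2 fold changes lay between -0.47 and 0.31 with 0 calls. Cxcl16, the membrane-bound ligand of Cxcr6, was lower in embryo 3 than in embryo 2, by -1.03 (edgeR adjusted p = 0.0193). Of the 9 tested, 1 was called higher (Ccl2) and 1 lower (Cxcl11) for embryo 2 minus embryo 1, and 1 higher (Cxcl11) and 2 lower (Cxcl16 and Ccl28) for embryo 3 minus embryo 2. For the groups 2 were called lower, Cxcl11 and Ccl28. Of all tested genes 4.35% were called for embryo 2 minus embryo 1, 5.63% for embryo 3 minus embryo 2 and 12.1% for the groups. Ccl2 and Ccl28 stayed under 1.15 CPM in every line and were named after their values had been seen.

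Of 23 other chemokine receptors only 3 passed the filter on low counts. Cmklr1, the chemerin receptor, had a mean of 11.6 CPM, and Ccr4, a receptor for Ccl17 and Ccl22, had 1.48 CPM. Cmklr1 differed among the embryos in the same order as Ackr3, with medians of 13.5 CPM in embryo 3, 6.87 CPM in embryo 2 and 14.2 CPM in embryo 1. It was lower in embryo 2 than in embryo 1, by -0.996 (SE 0.22, edgeR adjusted p = 0.00792), and higher in embryo 3 than in embryo 2, by 0.80 (edgeR adjusted p = 0.0161). Ccr4 was not called in any pair. Between the groups all 3 were without a call.

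Of 14 tested coreceptors and genes of receptor turnover, 2 were called for embryo 2 minus embryo 1, both lower (4.35% of all tested genes were called), and 1 for embryo 3 minus embryo 1, also lower (5.45% of all). Cd74, a coreceptor through which Mif signals with Cxcr4, was lower in embryo 2 than in embryo 1, with medians of 0.589 and 1.36 CPM and a log2 fold change of -1.79 (edgeR adjusted p = 0.00551). Grk3, a kinase that phosphorylates active Cxcr4, was lower in embryo 2 than in embryo 1, by -1.26 (edgeR adjusted p = 2.31e-06), and lower in embryo 3 than in embryo 1, by -0.79 (edgeR adjusted p = 0.000775). Its medians were 9.27 CPM in embryo 3, 6.52 CPM in embryo 2 and 16.5 CPM in embryo 1. For the groups Arrb1, an arrestin that binds phosphorylated receptors, was the only one of the 14 called, at -1.27 (SE 0.14), with 5.32 to 17.1 CPM in group I, against 15.9 to 56.0 CPM in group II. Of 40 tested signaling genes below Cxcr4, 2 were called lower in group I, the G protein subunit Gng2 (-0.60, SE 0.13) and the transcription factor Stat5b (-0.68, SE 0.10), and 0 were called higher. Elmo1, which activates Rac in migrating cells, was lower in embryo 3 than in embryo 2 (-1.21, edgeR adjusted p = 0.00292) and than in embryo 1 (-1.10, edgeR adjusted p = 0.0129). Of 13 proteases and matrix genes that trim or hold Cxcl12, 1 was called for the groups, the glypican Gpc3, at -0.95 (SE 0.22). These shares lie below the 12.1% of all tested genes called for the groups. The median log2 fold change for the groups was -0.09 over the turnover genes, -0.04 over the signaling genes and -0.01 over the matrix genes, against -0.01 over all tested genes.

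Most HIF target genes were lower in group I, as Cxcl12 was. Of 19 tested, 15 were called lower in group I and 0 higher, with a median log2 fold change of -1.15. Of all 19265 tested genes, 1264 were called lower in group I and 1067 higher. They include P4ha1, a collagen hydroxylase (-1.59, SE 0.18), Ero1a, an oxidase of protein folding (-1.21, SE 0.15), Ddit4, an inhibitor of mTORC1 (-1.68, SE 0.21), and the glycolytic enzyme Pgk1 (-1.23, SE 0.16). Their summed level was 1468 to 4176 CPM in group I, against 4181 to 6837 CPM in group II, and line 1.5 had the highest sum as it had the most Cxcl12. The count was 15 without lines 1.5 and 2.4, and 14 without lines 1.5 and 3.7. It was 10 without a set of 5 lines named beforehand for a chromosome-wide shift (2.2, 3.1, 3.2, 3.6 and 3.7). Shifts were measured here on chromosomes 1 and 6 only, where of these 5 lines only line 3.7 stood apart. The count was 0 once the fibroblast score described below was in the model. Of 10 genes of the HIF pathway itself 1 was called higher in group I, Epas1 (0.76, SE 0.17), which encodes HIF-2α, and 3 were called lower, Egln3 (-1.97, SE 0.36), Hif3a (-1.14, SE 0.18) and Egln1 (-1.02, SE 0.15). The paper drew the groups from these same libraries and the lists were chosen with results known, so these counts are a description, and their part in the level of Cxcl12 was not tested. For embryo 3 minus embryo 1, 1 of the 10 pathway genes was called, Egln3 (-2.19, edgeR adjusted p = 0.0494), and 1 of the 19 targets, Adm. Of all tested genes 5.45% were called for that pair.

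**Figure D5:**
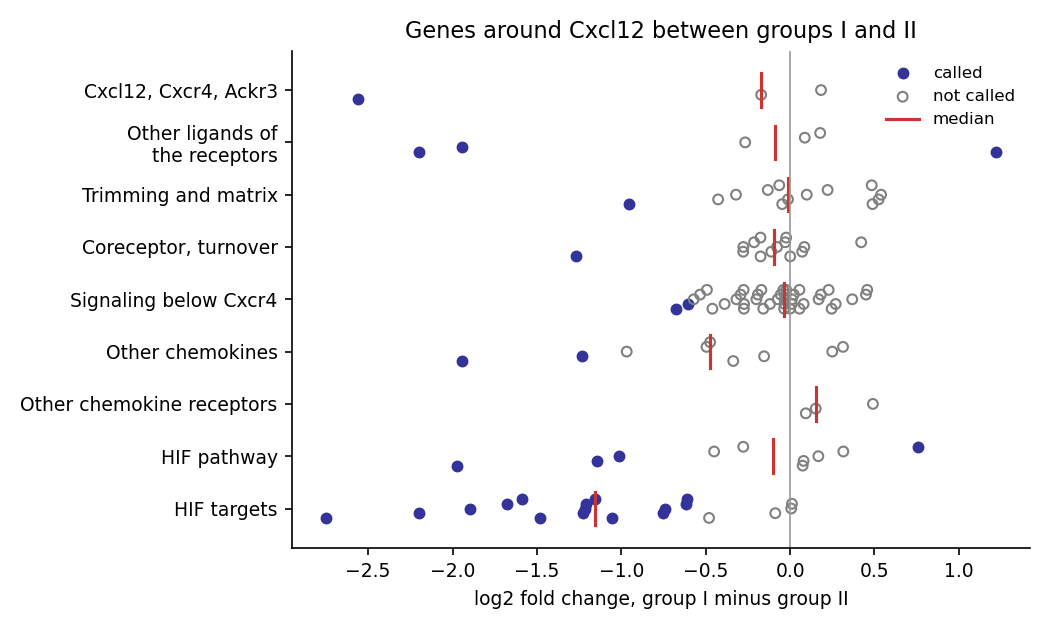
Log2 fold change, group I minus group II, of the tested genes in 9 lists around Cxcl12 (1 point per gene; Adm and Cxcl11 each stand in 2 lists), filled where the gene was called, with the median of each list in red. The HIF targets lie lowest, with a median of -1.15, and the 40 signaling genes are centred at -0.04.

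Markers of other cell types were read beside Cxcl12, since fibroblasts and other stromal cells are rich sources of it. Of 12 fibroblast markers, 8 were called higher in group I and 0 lower, where 12.1% of all tested genes were called in either direction and 1067 of 19265 were higher. Among them were Fap (1.15, SE 0.19) and Dcn (1.00, SE 0.19). The summed level was 418.5 to 811.5 CPM in group I, against 264.0 to 600.6 CPM in group II. Line 3.5, with the least Cxcl12, had the largest sum, and line 1.5, with the most, had the smallest. The lines between did not all follow this order. Line 3.4, with 2.71 CPM of Cxcl12, had a sum of 418.5 CPM, below the 600.6 CPM of line 3.1, with 7.28 CPM of Cxcl12. No relation over all lines was computed. A score of 5 of the fibroblast markers (Dcn, Lum and 3 collagens, as mean log2 CPM) was 3.99 to 5.09 in group I, against 2.97 to 4.46 in group II. When it was added to the model, the Cxcl12 log2 fold change was -1.33 (SE 0.43) and no group call was left. By edgeR 0 of 19709 tested genes were called, HIF targets and fibroblast markers included, with 2087 at an unadjusted p below 0.05. Since the score itself ran with the groups, this model cannot cleanly separate score from group. The HIF targets then had a median of -0.48, and 9 of the 19 had an unadjusted p below 0.05. The score holds 5 of the 12 fibroblast markers, whose count was 7 without lines 1.5 and 2.4, 7 without lines 1.5 and 3.7 and 4 without the 5 lines that have a chromosome-wide shift. The feeders were human and the counts are of mouse genes only, so reads of feeder RNA cannot be told apart here. Of 8 pluripotency markers 2 were called higher in group I, Tfcp2l1 (0.85, SE 0.14) and Klf4 (0.67, SE 0.12), and the summed level was 2841 to 4379 CPM in group I, against 2107 to 3366 CPM in group II. Endothelial markers summed to 55.1 to 101.2 CPM in group I, against 64.1 to 93.0 CPM in group II with 0 calls, and blood cell markers to 7.79 to 13.9 CPM in group I, against 5.77 to 9.70 CPM in group II, with Cd3e and Runx1 called higher in group I. Primordial germ cell markers, of which 0 were called for the groups, summed to 256.6 to 437.3 CPM in group I, against 301.8 to 376.6 CPM in group II. Of 7 tested markers of mesendoderm and definitive endoderm, 2 were called higher in group I, Gsc (0.98, SE 0.21) and Gata6 (0.89, SE 0.28), and the summed level was 5.30 to 20.2 CPM in group I, against 6.73 to 14.9 CPM in group II. The part of these cell types in the levels of the members was not tested.

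Beside Ackr3, markers of mesendoderm and definitive endoderm, tissues in which Cxcr4 is a common surface marker, also varied by embryo. Their summed level was 10.2 to 20.2 CPM in embryo 3, 5.30 to 9.98 CPM in embryo 2 and 9.99 to 19.6 CPM in embryo 1. Eomes was lower in embryo 2 than in embryo 1 (-1.40, edgeR adjusted p = 0.00147) and higher in embryo 3 than in embryo 2 (0.94, edgeR adjusted p = 0.0157). Gsc (1.10, edgeR adjusted p = 0.0449) and Gata6 (1.39, edgeR adjusted p = 0.0277) were higher in embryo 3 than in embryo 2. Of the 7 tested markers of this list, 1 was called lower for embryo 2 minus embryo 1 and 3 higher for embryo 3 minus embryo 2. For embryo 3 minus embryo 1, 0 were called. Over all tested genes the shares called in these comparisons, in either direction, were 4.35%, 5.63% and 5.45%. Of 8 germ cell markers 1 was called higher for embryo 2 minus embryo 1 (4.35% of all tested genes were called). For embryo 3 minus embryo 1, 0 were called (5.45% of all). For embryo 3 minus embryo 2, 1 was called higher and 1 lower, where 5.63% of all tested genes were called. Dppa3 was lower in embryo 3 than in embryo 2 (-0.76, edgeR adjusted p = 0.0120) and higher in embryo 2 than in embryo 1 (0.85, edgeR adjusted p = 0.0153), and Nanos3 was higher in embryo 3 than in embryo 2 (1.73, edgeR adjusted p = 0.0131). Among pluripotency markers Zfp42 was lower in embryo 3 than in embryo 1 (-0.64, edgeR adjusted p = 0.00660) and, with Dppa5a, lower in embryo 2 than in embryo 1 (-0.87 and -0.66). These were the only calls among the 8 pluripotency markers, with 0 for embryo 3 minus embryo 2, beside the same shares over all tested genes. In bulk RNA fewer cells of a type and less RNA per cell cannot be told apart.

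Among 12719 protein coding genes whose mean reached 1 CPM, the gene most like Cxcl12 over the 19 lines was Cd47, a surface protein that inhibits phagocytosis (Pearson r = 0.98 of embryo-centred log2 CPM, and 0.98 without line 1.5). Its levels were 1.69 to 7.74 CPM in group I, against 4.95 to 18.3 CPM in group II. Among the next likest were Rps6ka2 (0.97), a ribosomal S6 kinase, Rufy3 (0.96) and Skil (0.96), a repressor of TGFβ signaling. Without line 1.5 r was 0.96 for Rps6ka2, 0.95 for Rufy3 and 0.95 for Skil. The likest genes of Ackr3 were Nr4a1 (0.86), an immediate early nuclear receptor, Prdm14 (0.84), a regulator of pluripotency and germ cells, Ipmk (0.83), Tex264 (0.83) and Cox7a2l (0.82). Without line 1.5 these fell to 0.75 for Nr4a1, 0.71 for Prdm14, 0.76 for Ipmk, 0.68 for Tex264 and 0.71 for Cox7a2l. Those of Cxcr4 were Wfikkn1 (0.81), Rimbp2 (0.76), Fam168b (0.76), Lix1 (0.75) and Gdf1 (0.74), with 0.69 to 0.85 without line 1.5. These are the highest of 12719 values each, over points that share their library, and are given without a p. Centring was by embryo only, so those of Cxcl12 also hold the group difference by which it was chosen.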

How the data were processed

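The authors aligned stranded paired reads with STAR 2.7.8a to GRCm39 and counted genes with RSEM 1.3.0 on GENCODE M27, and the deposited expected counts are whole numbers. Columns were matched to lines by library name, with 0 unused, and 0 pairs of libraries were identical. Embryos come from the labels and groups I and II from the paper. The members, gene lists and tests were chosen with earlier results of these data known. Genes were kept by filterByExpr and counts scaled by TMM. Quasi-likelihood models of edgeR 4.0.16 (R 4.3.3) had embryo as their term for embryo pairs, and embryo plus group for groups I and II. Calls needed an adjusted p below 0.05 (Benjamini-Hochberg over all tested genes) and a change of more than 1.5-fold. The SE of edgeR was the absolute log2 fold change divided by the square root of the F statistic. The 95% intervals of fold changes treat it as normal, and are thus somewhat narrower than the quasi-likelihood test implies. Log2 CPM used a prior count of 2. Correlations were tested by permutation within embryos (100000 resamples over all lines, exact within groups). Positions come from a later GENCODE annotation of GRCm39. The fit was tested on simulated data. Python 3.11.15, SciPy 1.17.1 and Matplotlib 3.10.9 were used.

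Named genes are the members, listed ligands and chemokine receptors with a mean reaching 1 CPM, up to 4 called genes per direction, comparison and other list by smallest p, and the 5 genes most like each member, of which 1 is not reported here. Alternatives were DESeq2 1.42.0, RLE factors, 2 other filters, the line number as a block, lines left out singly or in sets, group or a fibroblast score as a covariate, no embryo term, no fold threshold, and other centring and prior counts. Leaving out lines 1.5 and 3.7, line 1.5 with group as a covariate, the group counts of listed genes under each alternative, and the longest transcript as length, were chosen after seeing the data. Protein sequences were not used here.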

Additional observations from a re-analysis of the deposited data

Results flagged for a closer look

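Of the 12 sets of 5 to 8 lines examined, 3 held a line far from the others in the level of a member. Gaps were taken on CPM rather than on log2 CPM, and the sets share lines. No chance rate can therefore be set beside the 3 of 12. Line 1.5 had 69.9 CPM of Cxcl12, against 14.8 CPM in the next line of embryo 1 and 21.4 CPM in the next line of group II. It stood apart in both sets, with gaps of 0.834 and 0.775 of the whole range. Line 3.3 had 5.28 CPM of Cxcr4, against 3.14 CPM in the next line of embryo 3, a gap of 0.612 of the range. Why these lines stood apart was not tested.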

How the results depend on the processing

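Over the embryo differences of the 3 genes, 244 of 261 alternative values kept their direction and their side of the threshold, 12 passed where the first did not and 5 turned in sign. Of the group differences 86 of 87 moved by less than the SD between lines of the same embryo and group. That SD was 0.799 for Cxcl12, 0.495 for Cxcr4 and 0.248 for Ackr3 on the log2 scale. For the receptors it exceeds the differences themselves (-0.17 and 0.18), so staying within it says little about them. Of the correlations 87 of 97 kept their direction and 10 turned. Ackr3 for embryo 3 minus embryo 2, at 1.49-fold beside the threshold of 1.5, was called with a minimum of 1 CPM in 5 lines (0.59), without lines 1.5 and 2.4 (0.59), without lines 1.5 and 3.7 (0.59) and with the line number as replicate block (0.59), and ranged from 0.52 to 0.64 when lines were left out singly, with 6 of 19 called. Without the 5 lines named below its adjusted p of edgeR was 0.0976. Cxcl12 for embryo 2 minus embryo 1 turned to 0.30 without lines 1.5 and 2.4 and to 0.25 without lines 1.5 and 3.7, with a range of -1.502 to 0.25 when lines were left out singly. For embryo 3 minus embryo 1 it was called with group as a covariate (-1.74). Cxcr4 for embryo 3 minus embryo 1 turned to 0.19 without the 5 lines named beforehand (2.2, 3.1, 3.2, 3.6 and 3.7). It ranged from -0.35 to 0.091 when lines were left out singly. For embryo 3 minus embryo 2 it ranged from -0.83 to -0.50. The Cxcl12 group difference moved to -1.33 once the fibroblast score was in the model and ranged from -2.71 to -2.24 when lines were left out singly, that of Cxcr4 from -0.28 to -0.0069 and that of Ackr3 from 0.074 to 0.25. Without centring, r of Cxcl12 and Cxcr4 in group I turned to 0.40, and r of Cxcr4 and Ackr3 to -0.12 over all lines and to -0.33 in group I. With lines left out singly, r of Cxcl12 and Cxcr4 ranged from -0.47 to 0.17 in group I and from -0.74 to 0.37 in group II, and r of Cxcl12 and Ackr3 from -0.081 to 0.59 in group I and from -0.73 to 0.29 in group II. That of Cxcr4 and Ackr3 ranged from 0.28 to 0.58 over all lines. Causes were not tested. Of 90 counts of listed genes among embryos, under DESeq2 or no fold threshold, 72 stayed within 1.5 times and 18 rose by 1 to 3 genes. Of 435 for the groups, under all alternatives, 377 stayed within 1.5 times, 9 rose and 49 fell. Over all genes the 2331 group calls came to 0 with the fibroblast score, which itself ran with the groups. They came to 771 without the 5 lines named above and 1405 with no embryo term. Without lines 1.5 and 3.7 they were 1524, and with the replicate block 1529. For embryo 3 minus embryo 1, the 1029 calls came to 502 without the 5 lines, 585 with the block, 1917 with group as a covariate (1559 without line 1.5) and 1585 with DESeq2. For embryo 3 minus embryo 2, 1062 came to 362 without the 5 lines and 1831 with group as a covariate (1994 without line 1.5). For embryo 2 minus embryo 1, 822 came to 1235 with DESeq2 and 1302 with group as a covariate without line 1.5.

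Of 17 pairs of lines with the same number in different embryos, 6 had a correlation of their deviations over 0.1. Pairs with different numbers were not set beside them, so these values cannot decide whether the line number marks a shared batch. Among the 3 genes the replicate block changed 1 call, that of Ackr3 given above. With 36 to 3112 Cxcl12 counts per line, counting error was small beside the spread between lines except near the gap between the groups, where the intervals of lines 2.4, 1.4 and 1.1 reach that of line 3.1.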
